A study of Mus musculus with 6 samples.

Results

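Immunoglobulin heavy chain constant genes encode the part of an antibody that sets its isotype, and their transcripts were read here in CD4+CD25+ regulatory T cell (Treg) preparations of HDAC6 knockout and wild-type mice. The members were the probe sets whose platform annotation named Igha, Ighm, Ighg3, Ighg1, Ighg2b or Ighd, alone or with other genes. There were 22 of them among 22626 probe sets that are not controls: 3 for Igha, 11 for Ighm, 4 for Ighg3 and 4 that carried several symbols (3 with Ighv14-2, Ighg3 and Ighm, and 1 with Ighv1-72 and Ighm). Ighg1, Ighg2b and Ighd matched 0 probe sets by symbol or gene ID and were not analysed here. The 6 genes were chosen with the difference between the genotypes already known. Their differences are therefore descriptions, with a standard error (SE) but no p-value, and support nothing further.

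The study set Treg of mice labelled HDAC6 knock out (3 arrays) against Treg of wild-type mice of the strain labelled C57BL6 (3 arrays), and its title pairs HDAC6, a mainly cytoplasmic deacetylase, with the chaperone HSP90. Both groups were separated magnetically as CD4+CD25+ cells, per the series' design text, which calls the 3 samples independent. The knockout's strain, the deleted part of the gene, the mice's age, the source organ and whether animals were pooled were not given in the sources used here. Where samples were not separate animals, the spread between arrays may be technical. Hdac6 itself read 7.54, 7.86 and 7.64 in the knockout, against 8.54, 8.23 and 8.42 in wild type. Its probe set may lie outside the deleted part, so it does not check the labels.

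An antibody is built of heavy and light chains, and B cells and plasma cells, not T cells, rearrange and express complete heavy chains. A naive B cell joins its variable region to Ighm and Ighd. Class switch recombination then replaces these by a gamma, epsilon or alpha constant region. IgM (Ighm) is the first antibody of a response, the IgG isotypes such as IgG3 (Ighg3) circulate in blood, and IgA (Igha) is the main antibody of mucosal secretions, exported as a dimer held by the J chain. Along chromosome 12 the RefSeq gene table (GRCm38.p6) lists the constant regions in the order Igha, Ighe, Ighg2c, Ighg2b, Ighg1, Ighg3, Ighd and Ighm.

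All values are log2 values from robust multi-array averaging (RMA), so a difference of 1 is a doubling of signal. A probe set is a group of short probes read together, and the suffix _x_at marks sets with probes shared with other sequences. Of the 22 members 8 were of that kind, so these sets can read each other's transcripts and those of other heavy chains. The remaining members, 5 of them with the suffix _s_at or _a_at, are not established to read their annotated gene alone. No probe sequences were used here. Array medians lay between 6.22 and 6.27 and lower quartiles between 4.14 and 4.25. No detection call was used here, so a member near the lower quartile is not established as expressed.

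Wild-type replicates 1 and 2 stood apart from the other arrays most often. By a gap of at least 1 on the log2 scale, chosen after the values were seen, wild-type replicate 2 lay below all 5 other arrays in 26 probe sets and above them in 17. For wild-type replicate 1 these counts were 20 and 19, for wild-type replicate 3 they were 8 and 0, and the knockout arrays had at most 3 below and 7 above. Of the 26 probe sets low in wild-type replicate 2, 5 were Ighm members, and no member was low in this way in another array. The largest gaps there were those of Trim12a (6.24) and Trim34a (4.95), of the antiviral TRIM family on chromosome 7. The neutrophil genes S100a8 and S100a9 were high in the same array, at 9.75 and 9.55, above the other arrays by 1.70 and 1.47.

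Of the 22 members, 11 had every knockout array above every wild-type array and 0 had every knockout array below. Over all probe sets these shares were 7.68% and 9.48%. The differences ran from -0.31 to 3.78 with a median of 0.36, beside a median of 0.00 over all probe sets. With limma's adjusted p over all probe sets and a threshold of 0.05, 5 members were called higher and 0 lower, where 0.0796% of all probe sets were called higher and 0.115% lower. These were all 3 Igha sets, 1 of the 4 Ighg3 sets and the set shared by Ighv1-72 and Ighm. Because the genes were chosen on this contrast, nothing is read from the count. Without knockout replicate 2 the count was 2, the Igha set 1429381_x_at and the Ighv1-72 and Ighm set.

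**Figure D1:**
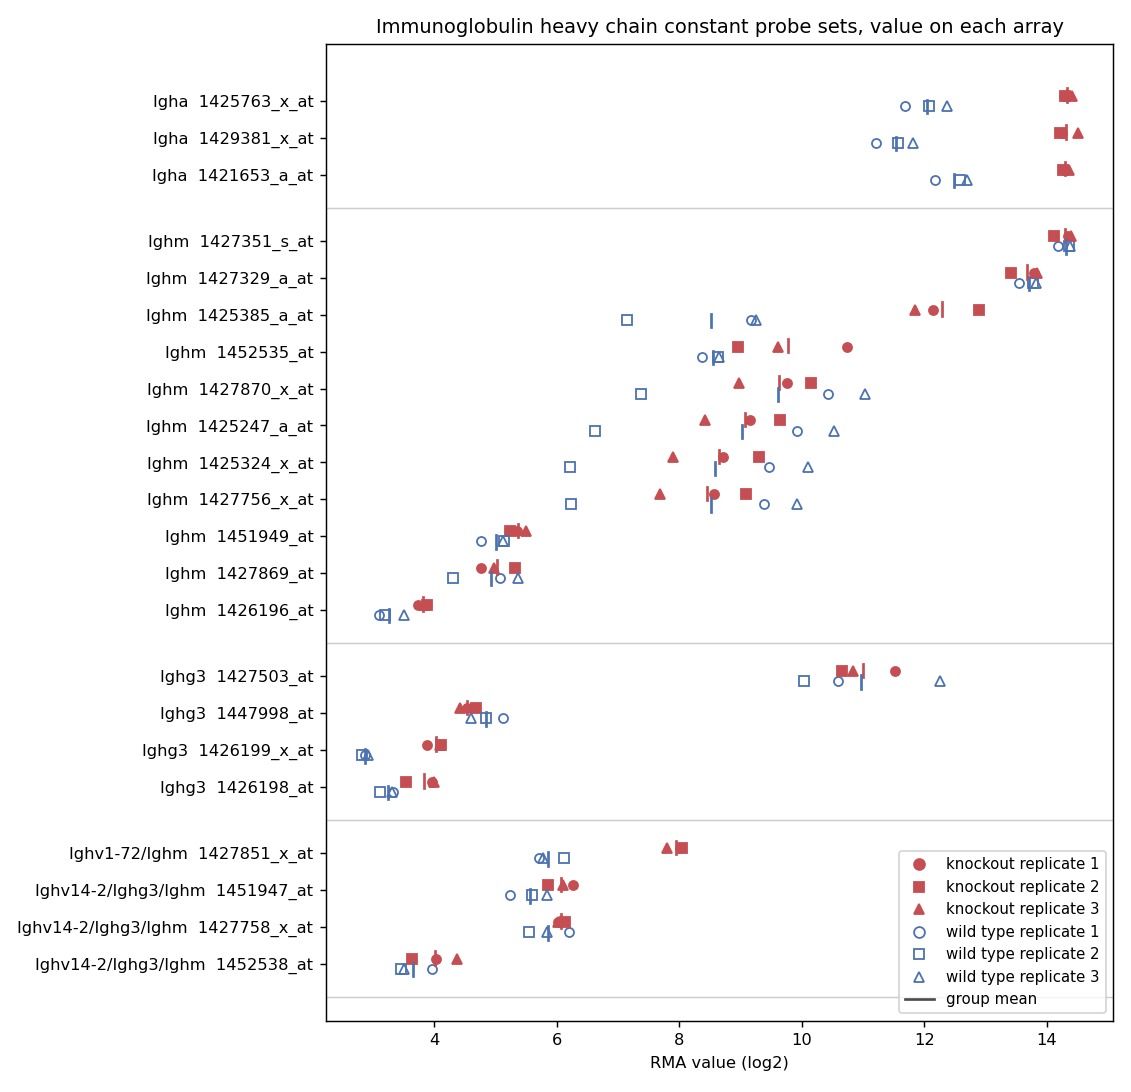
The RMA value (log2, horizontal axis) of each of the 22 probe sets on each of the 6 arrays, grouped by annotated gene. Filled red symbols are knockout arrays, open blue symbols wild-type arrays, the symbol shape gives the replicate number and vertical ticks are group means. The 3 Igha probe sets lie above 14 in every knockout array and below 13 in every wild-type array, and the 2 brightest Ighm probe sets overlap between genotypes.

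Igha, the constant region of IgA, was higher in each knockout preparation than in any wild-type one by all 3 of its probe sets. The set 1429381_x_at read 14.25, 14.21 and 14.51 in knockout replicates 1 to 3 and 11.21, 11.58 and 11.81 in wild-type replicates 1 to 3. The set 1425763_x_at read 14.28, 14.29 and 14.41 in the knockout, against 11.69, 12.08 and 12.38 in wild type. The set 1421653_a_at read 14.27, 14.27 and 14.36 in the knockout, against 12.18, 12.58 and 12.70 in wild type. In all 3 sets knockout replicate 3 was the highest array and wild-type replicate 1 the lowest. The groups were separated by at least 1.57 in every set, and the widest range within a genotype was 0.68. The differences, knockout minus wild type, were 2.79 (SE 0.16), 2.28 (SE 0.16) and 1.81 (SE 0.14), or 6.92-fold, 4.85-fold and 3.51-fold as recorded. The knockout values lay at the top of the scale, so these folds can be understated. Over the alternatives they ranged from 2.63 to 2.93, from 2.10 to 2.44 and from 1.66 to 1.92. The 3 sets read 1 gene and are not independent of each other. In a bulk preparation more cells that make a transcript and more transcript per cell cannot be told apart.

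The Igha values of the knockout lay at the top of the measurable scale. Array maxima ran from 14.40 to 14.51, and in knockout replicate 3 the brightest of all 22626 probe sets was 1429381_x_at itself. In the knockout arrays at most 7 probe sets were brighter than any Igha set, while in wild type 221 to 696 were. The standard deviation (SD) of 1421653_a_at was 0.05 over the 3 knockout arrays and 0.28 over the 3 wild-type arrays, that of 1425763_x_at 0.07 and 0.34, and that of 1429381_x_at 0.16 and 0.30. The 3 sets ordered their differences by their level in wild type, with the dimmest there (mean 11.53) differing most and the brightest (mean 12.49) least, while their knockout means lay within 0.03 of each other. The wild-type Igha values lay 1.71 to 3.25 below the maximum of their own array, which is about the most that a rise from them could show on this scale.

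**Figure D2:**
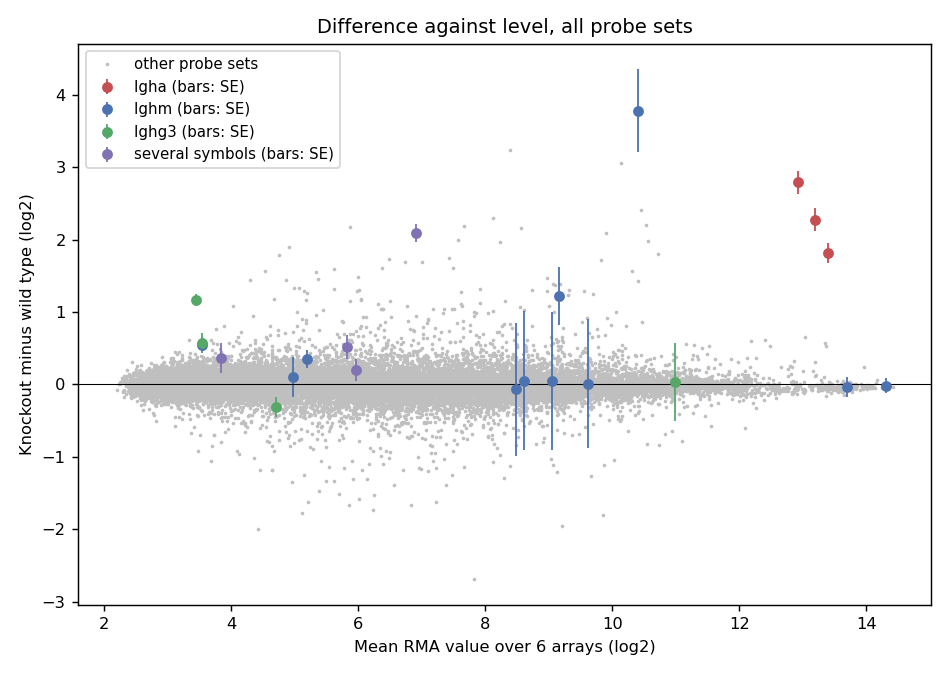
Knockout minus wild type (log2, vertical axis) against the mean RMA value over the 6 arrays (log2, horizontal axis) for all 22626 probe sets, with the 22 members coloured by annotated gene and bars of 1 SE. Among the bright probe sets at the right, the 3 Igha sets stand at 1.81 to 2.79 and the brightest Ighm set at -0.02.

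The 2 brightest Ighm probe sets, by contrast, differed little between the genotypes, at a level where a difference is hard to record. Ighm encodes the mu chain of IgM. The set 1427351_s_at read 14.35, 14.13 and 14.40 in the knockout, against 14.18, 14.37 and 14.38 in wild type, and the groups differed by -0.02 (SE 0.10). The set 1427329_a_at read 13.80, 13.41 and 13.84 in the knockout, against 13.54, 13.78 and 13.83 in wild type, and the groups differed by -0.04 (SE 0.14). In both sets knockout replicate 2 was the lowest array, followed by wild-type replicate 1, and the groups overlapped. At most 10 probe sets in any array were brighter than 1427351_s_at, whose values lay 0.03 to 0.30 below the array maxima, where those of Igha in the knockout lay at most 0.22 below. The set 1427329_a_at stood 0.58 to 1.02 below the maximum of its array. Whether the Igha and Ighm differences differ was not tested, since both belong to the contrast on which the genes were chosen.

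Another Ighm-annotated probe set had the largest rise of the whole table. The set 1425385_a_at read 12.14, 12.90 and 11.85 in the knockout, against 9.17, 7.14 and 9.25 in wild type. Every knockout array was above every wild-type array by at least 2.60, and wild-type replicate 2 lay below the other wild-type arrays by 2.03. The difference was 3.78 (SE 0.57), or 13.7-fold, the highest of 22626. It was not called, with an SD of 1.19 in wild type and 0.54 in the knockout (n = 3 each). Without wild-type replicate 2 it was 3.09 (SE 0.29), or 8.50-fold. The nearest probe sets in pattern carried no symbol: 1426174_s_at differed by 3.24 (SE 0.24) and 1424631_a_at by 3.06 (SE 0.27), ranks 2 and 3 among the rises of the table. Both were lowest in wild-type replicate 2. They were picked after their values were seen and are not named here.

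A further 4 Ighm probe sets shared 1 pattern, in which wild-type replicate 2 departed from the other wild-type arrays. The brightest, 1427870_x_at, read 9.76, 10.15 and 8.97 in the knockout, against 10.43, 7.38 and 11.03 in wild type. The set 1425247_a_at read 9.15, 9.65 and 8.42 in the knockout, against 9.93, 6.62 and 10.53 in wild type. The set 1425324_x_at ran from 6.21 to 10.10 and 1427756_x_at from 6.23 to 9.93. In each of the 4 sets wild-type replicate 3 was highest, wild-type replicate 1 second (above all knockout arrays) and wild-type replicate 2 lowest, with knockout replicates 2, 1 and 3 between them in that descending order. After each set was centred on its own mean, the 6 pairs among them differed by a root mean square of 0.05 to 0.11 over the 6 arrays, while wild-type replicate 2 lay 1.45 to 1.79 below the next array. The sets thus read nearly the same signal and count as 1 measurement.

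Over all 6 arrays the genotype means of these 4 sets almost coincided. The differences were 0.01 (SE 0.89), 0.04 (SE 0.95), 0.05 (SE 0.96) and -0.06 (SE 0.92). Without that array they were -1.11 (SE 0.36), -1.16 (SE 0.37), -1.14 (SE 0.41) and -1.20 (SE 0.41), so the knockout was then lower by 2.15-fold to 2.30-fold. The 2 brightest Ighm sets read 14.37 and 13.78 in wild-type replicate 2 and were not lowest there. They lay 0.07 and 0.65 below that array's maximum, and whether the top of the scale hid a dip was not tested. That array also held the low values of Trim12a and Trim34a given above, whose part in this pattern was not tested. Other arrays moved these differences too. Without wild-type replicate 3 the 4 sets differed by 0.72, 0.79, 0.81 and 0.64, and without knockout replicate 2 by -0.25 to -0.38. The sign thus changed with the array left out, and no direction is read from these 4 Ighm sets.

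**Figure D3:**
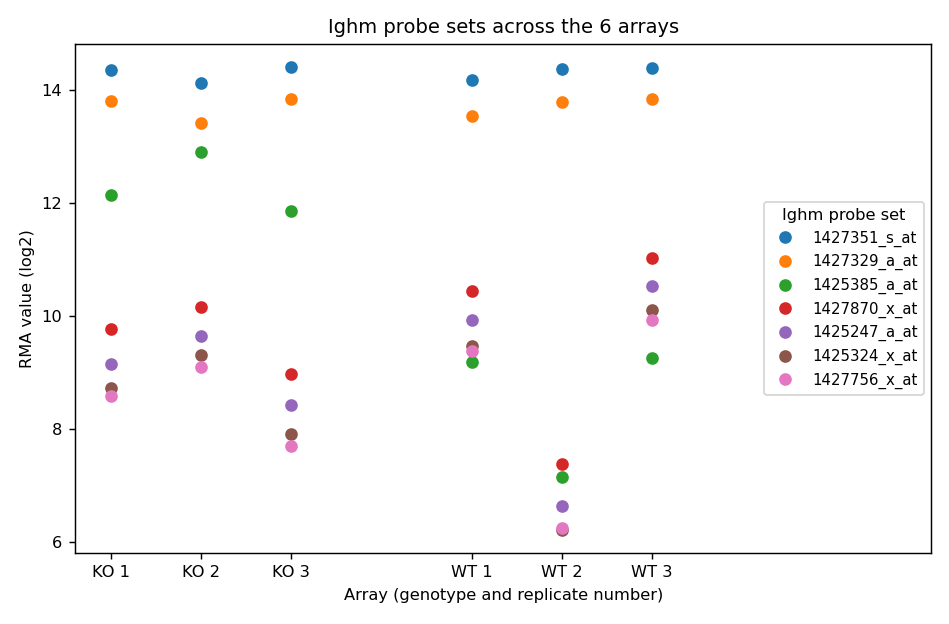
RMA value (log2, vertical axis) of 7 Ighm probe sets on each of the 6 arrays (horizontal axis, KO for knockout and WT for wild type). Points of 1 colour are 1 probe set. The 2 brightest sets lie near the top of the scale on every array, 1425385_a_at is at 11.85 or more in the knockout, and 5 sets drop in wild-type replicate 2 to between 6.21 and 7.38.

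The remaining 4 Ighm probe sets were dimmer or rested on 1 array. The set 1452535_at read 10.74, 8.97 and 9.62 in the knockout, against 8.37, 8.63 and 8.66 in wild type, and the groups differed by 1.22 (SE 0.40). Knockout replicate 1 stood 1.13 above the next array, and without it the difference was 0.74. Of all probe sets, 1 of Rsad2, an interferon-induced antiviral gene, lay nearest to it in pattern, with a root mean square difference of 0.23. The set 1451949_at differed by 0.35 (SE 0.13) and 1426196_at by 0.55 (SE 0.11), each without overlap, at means of 5.36 and 3.81 in the knockout. The set 1427869_at, drawn from the same representative sequence as 1427870_x_at, read from 4.31 to 5.37 and was also lowest in wild-type replicate 2. It differed by 0.10 (SE 0.27), and by -0.20 without wild-type replicate 2. Its centred values differed from those of 1427870_x_at by a root mean square of 0.88. Over the wild-type arrays its range was narrower, 1.06 against 3.65. Both sets were highest in wild-type replicate 3 and lowest in wild-type replicate 2, so the root mean square cannot tell another pattern from a weaker signal here.

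The 4 Ighg3 probe sets disagreed with each other. Ighg3 encodes the gamma3 chain of IgG3. The brightest, 1427503_at, read 11.52, 10.65 and 10.84 in the knockout, against 10.59, 10.05 and 12.27 in wild type, so the groups overlapped and wild-type replicate 3 was the highest array. It differed by 0.03 (SE 0.54), by 0.68 without wild-type replicate 3 and by -0.43 without wild-type replicate 2. The set 1426199_x_at read 3.89, 4.11 and 4.09 in the knockout, against 2.87, 2.82 and 2.93 in wild type, and the groups differed by 1.16 (SE 0.08). All 6 values lay under the arrays' lower quartiles of 4.14 to 4.25. Its partner from the same representative sequence, 1426198_at, differed by 0.58 (SE 0.14) at a mean of 3.83 in the knockout. The set 1447998_at read 4.54, 4.68 and 4.42 in the knockout, against 5.12, 4.84 and 4.60 in wild type, and the groups differed by -0.31 (SE 0.14) with overlap. The brightest Ighg3 set thus showed no separation, and the separated ones were dim.

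The probe sets with several symbols name no single gene. The set annotated to Ighv1-72 and Ighm, 1427851_x_at, read 8.01, 8.05 and 7.79 in the knockout, against 5.71, 6.11 and 5.77 in wild type. The groups were 1.68 apart, and the difference was 2.09 (SE 0.13), or 4.25-fold. Its nearest probe sets in pattern were 2 of Igha, at root mean square differences of 0.23 and 0.26, and not an Ighm set. Of the 3 sets annotated to Ighv14-2, Ighg3 and Ighm, 1451947_at differed by 0.52 (SE 0.17) without overlap. The other two, 1452538_at and 1427758_x_at, differed by 0.37 (SE 0.21) and 0.20 (SE 0.15) with overlap, and by 0.28 and 0.04 without wild-type replicate 2.

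Besides Igha 1425763_x_at, the probe sets nearest in pattern to Igha 1421653_a_at were immunoglobulin sets: 1 of Igk at a root mean square difference of 0.21, the Ighv1-72 and Ighm set at 0.23 and another of Igk at 0.24. With each gene read by its brightest probe set of 1 symbol and centred on its mean, the 5 nearest genes to it were Penk, which encodes proenkephalin, Stfa3, Khdc1a, Parp3 and Abhd14b, at root mean square differences of 0.29 to 0.36. Penk read 9.83, 9.61 and 9.70 in the knockout, against 7.84, 8.01 and 8.87 in wild type. All 5 differed by less than Igha, from 1.30 to 1.61. The 5 nearest to the brightest Ighm set were Slc46a3, Klf12, Gm16499, Hoxc4 and Mapre1, at 0.03 to 0.04, with differences between the genotypes of -0.03 to 0.03. That Ighm set lay near the top of the scale and varied little, and the root mean square is not scaled for the size of change. Genes that vary little can lie near it for that reason alone, so no likeness is read from these distances.

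Genes of antibody secretion were higher in the knockout in 20 of 21 cases, by amounts smaller than those of Igha. Jchain, whose product joins IgA dimers and IgM pentamers, read 13.60, 13.59 and 13.74 in the knockout, against 12.74, 13.20 and 13.26 in wild type, and the groups differed by 0.58 (SE 0.14, adjusted p = 0.218). Tnfrsf17, the survival receptor BCMA of plasma cells, read 6.48, 5.87 and 7.00 in the knockout, against 4.91, 5.49 and 5.51 in wild type, and the groups differed by 1.15 (SE 0.29, adjusted p = 0.228). Its groups did not overlap. Txndc5, a disulphide isomerase of the secretory pathway, differed by 0.82 (SE 0.19, adjusted p = 0.187) and Edem1, which feeds misfolded glycoproteins to degradation, by 0.67 (SE 0.13, adjusted p = 0.146). Xbp1, the transcription factor of secretory cells, differed by 0.40 (adjusted p = 0.223). The plasma cell surface proteoglycan Sdc1 differed by 0.64 (adjusted p = 0.367) and Prdm1, which encodes Blimp-1, by 0.13 (adjusted p = 0.832). Each gene was read by its brightest probe set, and its other sets did not always give the same size. The other Edem1 set differed by only 0.11 (SE 0.07, adjusted p = 0.649) and the other Txndc5 set by 0.57. The other Xbp1 sets differed by 0.17 to 0.41 and the other Sdc1 sets by 0.15 to 0.67.

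Of the 21 measured genes of the plasma cell list 0 passed limma's threshold over all probe sets, where 0.169% of all genes passed. At an unadjusted p under 0.05, 10 were higher and 0 lower, where 5.70% of all genes were higher and 5.45% lower. In 10 of the 21 every knockout array was above every wild-type array, beside 8.28% of all genes, and in 0 every knockout array was below, beside 10.3%. Like the lists below, this one was chosen with earlier results of these data known, so its counts are descriptions. The list's median difference was 0.32, against 0.00 over 12393 genes, and its mean level ran from 8.87 to 9.27 over the knockout arrays and from 8.61 to 8.82 over the wild-type arrays. Knockout replicate 3, the highest array for all Igha sets, was also highest for this list, and wild-type replicate 1 was lowest for both. The Igha values of the knockout arrays lay at the top of the scale, so little can be read from their order. The list's least abundant gene averaged 5.87. The part of such cells in the Igha difference was not tested.

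**Figure D4:**
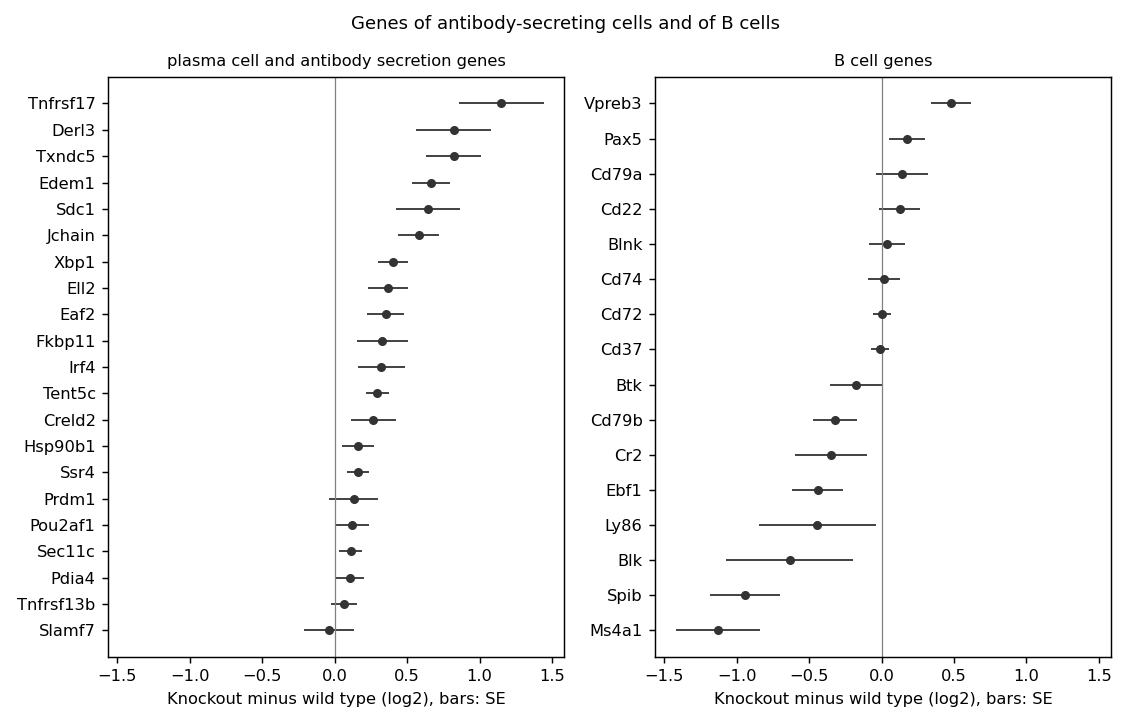
Knockout minus wild type (log2, horizontal axis) with bars of 1 SE for the 21 measured plasma cell and antibody secretion genes and the 16 measured B cell genes. Of the first list 20 lie above 0, from Tnfrsf17 at 1.15 to Slamf7 at -0.04, and the second spreads from Vpreb3 at 0.48 to Ms4a1 at -1.13.

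Genes of the B cell surface and lineage went both ways. Of 16 measured members 7 were higher and 9 lower, with a median of -0.09, 0 past the threshold, and 1 higher and 3 lower at an unadjusted p under 0.05. Over all genes 5.70% were higher and 5.45% lower at that p. Cd79a and Cd79b, which carry the signal of the membrane antibody, differed by 0.14 (adjusted p = 0.825) and -0.32 (adjusted p = 0.521). Ms4a1, which encodes CD20, read 7.40, 8.11 and 7.96 in the knockout, against 9.04, 9.44 and 8.38 in wild type, and the groups differed by -1.13 (SE 0.29, adjusted p = 0.236) without overlap. Spib, a transcription factor of B cells, differed by -0.94 (adjusted p = 0.230), Vpreb3 by 0.48 (adjusted p = 0.282) and Ebf1 by -0.44 (adjusted p = 0.441). The list's mean level ran from 7.17 to 7.64 in the knockout and from 7.46 to 7.83 in wild type, so the genotypes overlapped. It was 7.83 in wild-type replicate 2, the highest of the 6 arrays, where the 5 Ighm sets were lowest.

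The machinery and the signals of class switching gave 0 genes past limma's threshold. Of 17 measured recombination and repair genes 8 were higher and 9 lower, with a median of -0.01, and 1 had an unadjusted p under 0.05: Trp53bp1, which protects broken switch regions, at -0.32 (SE 0.09, adjusted p = 0.252). Atm, the kinase that senses double-strand breaks, read 8.58, 8.55 and 8.60 in the knockout, against 8.10, 6.90 and 8.56 in wild type, so it too was lowest in wild-type replicate 2. Of 19 cytokines, receptors and factors that direct switching 8 were higher and 11 lower, and 4 had an unadjusted p under 0.05, 2 higher and 2 lower. Over all genes 5.70% were higher and 5.45% lower at that p. Il10 differed by 0.81 (adjusted p = 0.113), Il21, a helper cytokine for antibody responses, by 1.30 (adjusted p = 0.247), Il4, which directs switching to IgG1 and IgE, by -1.15 (adjusted p = 0.158) and Tbx21 by -0.44 (adjusted p = 0.364). Tgfb1, the cytokine that directs switching to IgA, read 9.72 to 9.73 in the knockout and 9.34 to 9.67 in wild type, and the groups differed by 0.17 (SE 0.10, adjusted p = 0.623).

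Of 13 measured genes of antibody receptors and related proteins 7 were higher and 6 lower, with 0 past limma's threshold and 0 at an unadjusted p under 0.05. Pigr, which carries IgA and IgM across epithelia, read 3.63 to 4.06 over the 6 arrays. The markers of the labelled cells showed differences of at most 0.21 among the 3 defining genes: Foxp3, at 10.18 to 10.40 over the 6 arrays, differed by 0.06 (SE 0.08), Il2ra by 0.01 (SE 0.12) and Cd4 by 0.21 (SE 0.09), and of 14 measured T cell and Treg genes 7 were higher and 7 lower. That list's mean level ran from 10.76 to 10.85 in the knockout and from 10.75 to 10.84 in wild type. Of 10 myeloid genes 3 were higher and 7 lower, and of 7 cytotoxic cell genes 1 was higher and 6 lower, with 0 past the threshold in these 3 lists. At an unadjusted p under 0.05 the T cell list had 0, the myeloid list 1 lower, and the cytotoxic list 1 higher and 2 lower. Over all genes 5.70% were higher and 5.45% lower at that p. In the cytotoxic list Gzma differed by -1.03 (SE 0.25, adjusted p = 0.204) and Cd8b1 by -0.37 (SE 0.09, adjusted p = 0.192), each without overlap. Cd8a differed by 0.25 (SE 0.08, adjusted p = 0.358), and its other probe set by -0.05.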

How the data were processed

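Transcript levels were measured on 6 one-colour oligonucleotide arrays. The authors deposited 1 table of log2 values normalized by RMA, per the submitters' processing notes (no version given); that the scale is log2 was taken from the range of the values. RMA compresses differences at both ends of the scale. The number of arrays limits the precision (median SE 0.10 over probe sets). From 22690 probe sets 64 controls were left out. Platform annotation, updated through gene IDs (RefSeq table, GRCm38.p6), gave 20380 probe sets 1 symbol, 691 several and 1555 none. Genotypes were tested by limma 3.58.1 (R 4.3.3; lmFit, eBayes, two-sided, Benjamini-Hochberg over 22626 probe sets, threshold 0.05), and this fit was tested on simulated data. Genes of 8 context lists were read by their brightest probe set of 1 symbol; 117 of 132 genes had one. The members and lists were chosen with earlier results of these data known. Every member is described; from the lists, a fixed set of genes and those with the smallest p were eligible to be named, as were the 5 genes nearest in pattern. Tried as alternatives were quantile normalization, median centring, a replicate block, trend and robust settings, array weights, a mean of at least 6, and leaving out each array. Figures were drawn with matplotlib 3.10.9.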

Additional observations from a re-analysis of the deposited data

How the results depend on the processing

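The 5 calls among the heavy chain members were 5 in every alternative that kept all arrays except array weights (6, adding Ighm 1425385_a_at) and a mean of at least 6 (4, the dim Ighg3 set not being tested). Leaving out 1 array gave 2 to 5. Over the 12 alternatives the sign of 14 of the 22 member differences was kept in each one run. The other 8, 7 of Ighm and 1 of Ighg3, were between -0.06 and 0.10 to begin with. Calls over all probe sets, 44 in the report, were 147 with trend and robust settings, 86 with array weights and 5 to 51 with 1 array left out (20 and 5 on dropping knockout arrays 1 and 2, 11 on dropping wild-type array 2). A replicate block gave 27. The numbers share no stated litter or day: same-numbered arrays correlated at 0.22, -0.09 and 0.10 in their deviations, and 3 of 6 arrays correlated best with their own number. The block left the member count at 5. The context lists gave 0 calls in all 12 alternatives. Values near 14 are limited by the top of the scale and those under about 4 by background.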
